A study of Mus musculus with 6 samples.

Results

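The proteasome subunit genes analysed here are the 39 genes, of 16244 in the deposited table, whose symbol is *Psma*, *Psmb*, *Psmc*, *Psmd* or *Psme* followed by a number. *Psmb8*, *Psmb9* and *Psmb10*, which encode the immunoproteasome subunits, were left out of this set and are described separately. The proteasome is the protease that degrades ubiquitin-tagged proteins in the cytosol and nucleus. Its barrel-shaped 20S core is built from rings of alpha subunits, which form the gate, and rings of beta subunits, some of which carry the active sites. A 19S particle, made of a base with ATPases and a lid, binds and unfolds the tagged proteins, and other activators can take its place on the core. In T cells, proteasome activity also limits the lifetime of many signaling proteins and transcription factors. The members were grouped by role as alpha ring, structural and catalytic beta ring, ATPases and other subunits of the 19S base, 19S lid, base assembly chaperones and activators.

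RNA-seq was performed on Th17 cells from WT mice and from knockin mice that carry the N275D substitution in RORγt, the transcription factor that directs Th17 differentiation, with 3 libraries per genotype. Spleen was the source of the naive CD4+ T cells, which were enriched by negative selection, activated with anti-CD3 and anti-CD28 and cultured for 3 days with IL-6, IL-1β and IL-23 before RNA isolation. The methods list TGF-β, anti-IL-4 and anti-IFN-γ in the same medium, which the series design does not. Both genotypes are described as C57BL/6, and the methods give 6 to 12 weeks as the age of the animals unless stated otherwise. The WT mice were purchased and are listed as C57BL/6NJ, while the knockin line came from another laboratory with no substrain given. Whether the donors of these libraries were littermates is not given, so substrain and colony cannot be told apart from genotype. Whether the knockin donors of these libraries carried the substitution on both alleles is not given in the sources used here. Because the sources do not state whether the 3 libraries came from separate animals or cultures, p-values measure only the spread between these libraries, which may be technical.

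Reads on genes numbered 17905693 to 18510878 in the WT and 17659035 to 17888463 in the N275D libraries. Among the WT libraries, replicate 3 deviated most from the other 2. Summed normalized reads of the Th17 and T cell markers were 75444 to 79580 in WT and 87625 to 88703 in N275D libraries, so the labelled cell type was seen in all 6. Markers of B cells summed to 150 to 160 and 214 to 273, those of CD8 T and natural killer cells to 139 to 164 and 205 to 224, those of myeloid cells to 51.5 to 55.5 and 52.2 to 61.9, and *Sox13*, the only 1 of 4 gamma delta T cell markers in the table, had 18.2 to 31.4 and 35.1 to 38.5, in WT and N275D respectively. Of the tested markers, 5 of 8 for T and Th17 cells rose and 3 fell, 3 of 4 for B cells, 2 of 3 for CD8 T and natural killer cells and *Sox13* rose, and of 2 for myeloid cells 1 rose and 1 fell. Over all genes tested, 24.7% rose and 26.1% fell. Among the markers, *Klrb1c* was at 0 in the 3 N275D libraries and in 1 WT library, *Ms4a1* in 2 WT libraries and *Csf1r* in 1 WT library. The part of these low levels in the differences described here was not tested. A single substituted codon is not visible in gene totals, so these values give no check of the genotype labels.

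The proteasome subunit genes called as different between N275D and WT Th17 cells mostly fell, and more of them did not pass than were called. Of the 38 subunit genes tested, 16 fell, 2 rose and 20 did not pass an adjusted p of 0.05 by limma, and the median log2 fold change was -0.09 within a range from -0.39 to 0.13. Estimates were below 0 for 32 of them and above 0 for 6, against 5997 and 5911 of the 11908 genes tested. The 2 genes that fell most were *Psma6*, an alpha ring subunit, and *Psme3*, which encodes the nuclear activator PA28γ, and the 2 that rose were *Psmd8*, a lid subunit, and *Psme2*, which encodes the PA28β subunit of an interferon-inducible activator. For comparison, 26.1% of the 11908 genes tested were called lower and 24.7% higher, and their median was -0.0026 on the log2 scale. In terms of raw separation, the 3 N275D libraries all lay below the 3 WT libraries for 23 subunits and all above them for 2, while the groups overlapped for 13; 29.6% of all genes tested were separated with N275D lower. The differences were small: only *Psma6* and *Psme3* were called at a change of at least 1.2-fold, a criterion that 13% of all genes met in the lower direction. For any 1 gene, the smallest two-sided p that exact permutation of 3 and 3 libraries allows is 0.1. Bulk RNA cannot tell fewer cells of a type from less RNA per cell. Under quantile normalization 9 subunits fell and 2 rose, and their median of -0.024 was close to the all-gene median of -0.018.

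**Figure D1:**
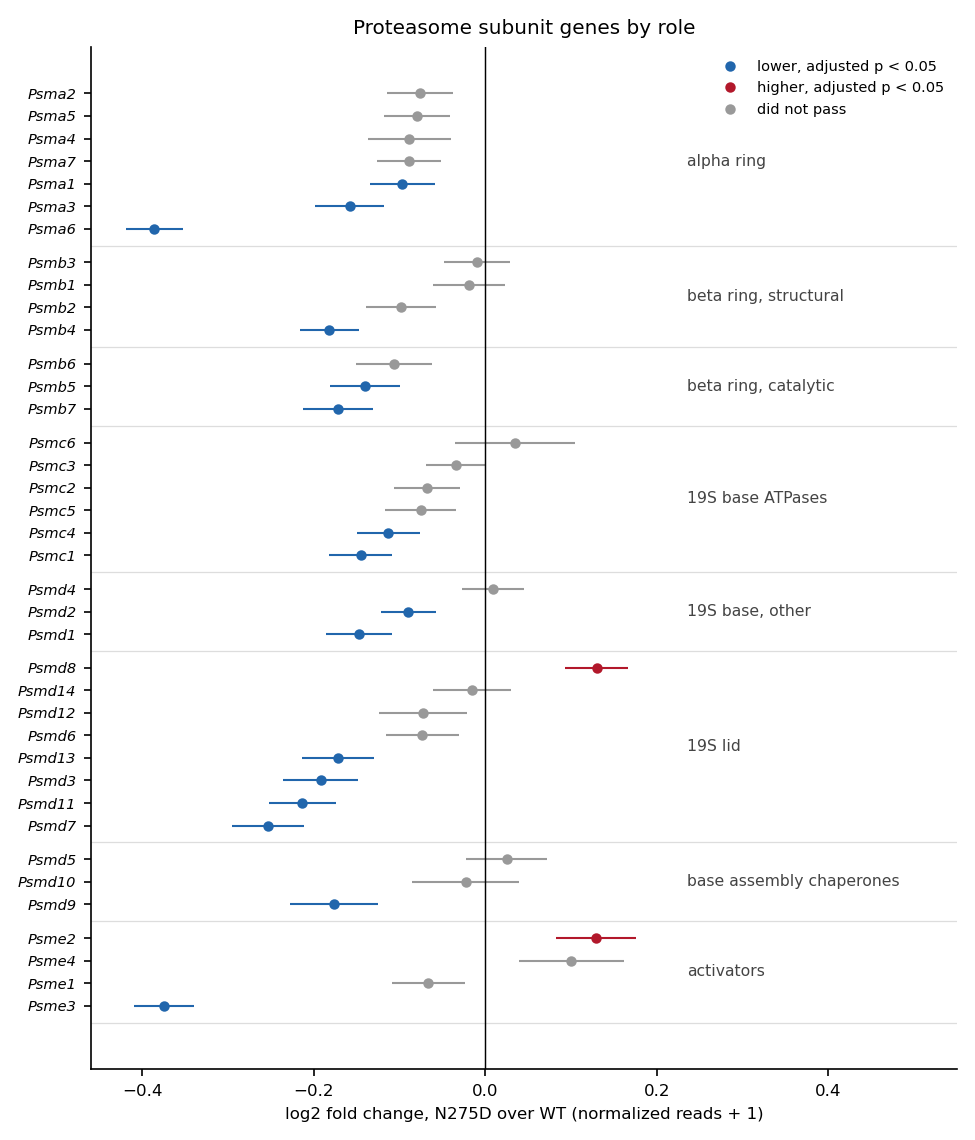
Points show the log2 fold change of each of the 38 tested subunit genes (N275D over WT, log2 of normalized reads + 1, horizontal axis) with bars of 1 standard error, grouped by role, blue for genes called lower, red for genes called higher and grey for the rest. Most points sit between -0.25 and 0, *Psma6* and *Psme3* lie apart at -0.39 and -0.37, and *Psmd8* and *Psme2* are the 2 red points.

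Subunits are abundant transcripts, and abundant genes had a shift of their own. Among the 4220 genes that averaged 1000 or more normalized reads, 40.7% were called lower and 19.9% higher, and their median was -0.06 on the log2 scale. The 36 subunits above the same level included 15 that fell (41.7%) and 2 that rose (5.56%), so the share that fell was near the share among abundant genes. Separation with N275D lower was seen for 22 of these 36 subunits (61.1%), against 43.8% of abundant genes. Estimates were below 0 for 30 of the 36 subunits, against 2635 of the 4220 abundant genes. The estimates of the subunits covered a narrow range. Their interquartile range was 0.13 on the log2 scale, from -0.16 to -0.03, against 0.27 for abundant genes and 0.38 for all genes tested. Only 2 of the 36 (5.56%) were called at 1.2-fold or more in either direction, against 23.7% of abundant genes and 29.9% of all genes. These shares describe the set and were not tested.

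**Figure D2:**
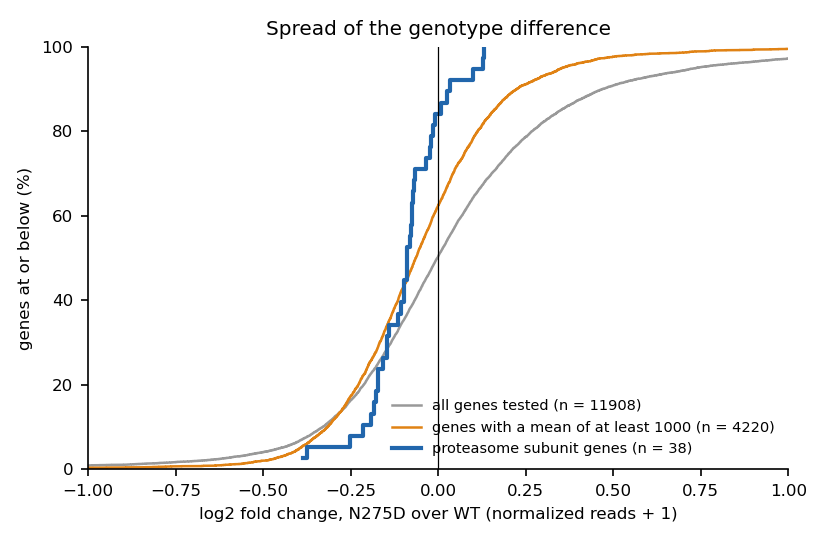
Cumulative share of genes (vertical axis, %) at or below each log2 fold change (N275D over WT, horizontal axis, drawn from -1 to 1) for the 38 tested subunit genes in blue, the 4220 genes averaging 1000 or more normalized reads in orange and all 11908 genes tested in grey. The blue curve is the steepest, with an interquartile range of 0.13 against 0.27 and 0.38.

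The 3 N275D libraries gave similar values. Relative to the WT mean, 32, 30 and 30 of the 38 subunits were lower in N275D replicates 1, 2 and 3, with medians of -0.08, -0.10 and -0.09 on the log2 scale. The median of all genes tested was -0.003 in each of these libraries. In the WT libraries, 14, 24 and 18 subunits were below that mean, which these libraries themselves define, so these counts are no control. Together the 39 genes held 0.770%, 0.761% and 0.762% of all normalized reads in WT and 0.725%, 0.722% and 0.721% in N275D libraries, and the genotypes did not overlap. This sum is given as a description without a test.

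**Figure D3:**
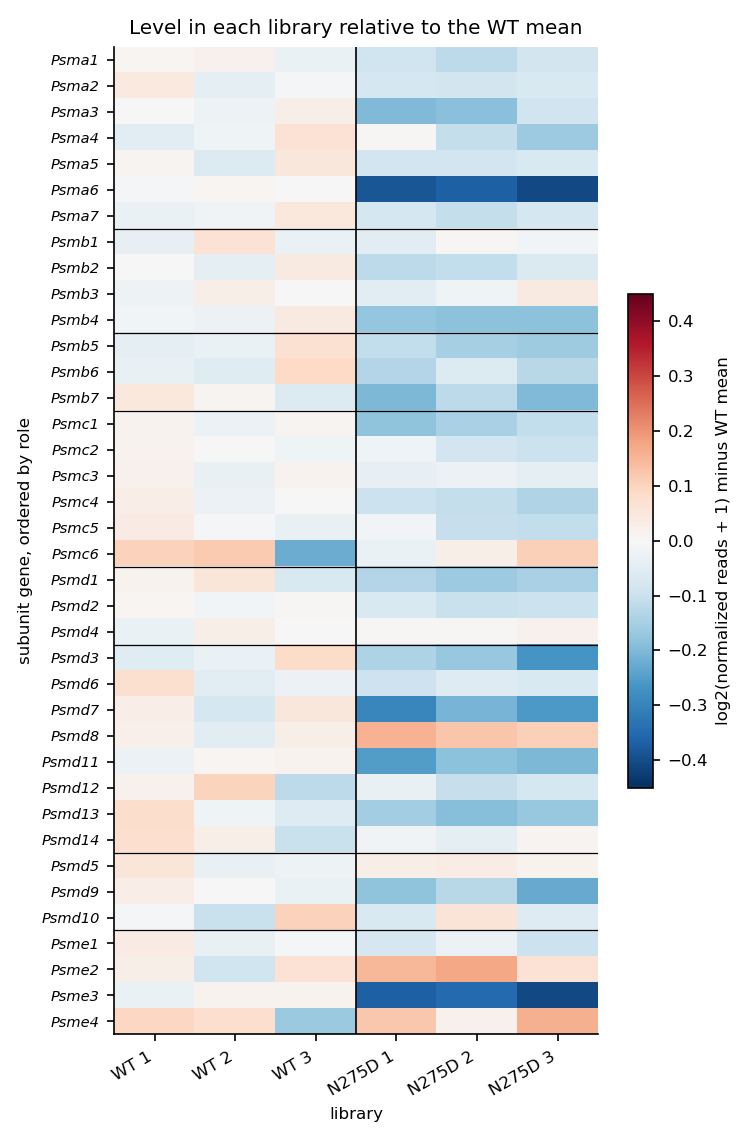
Each row is 1 of the 38 tested subunit genes, ordered by role, each column 1 library, and the color is log2(normalized reads + 1) minus the WT mean of that gene, blue for lower and red for higher. The N275D columns are mostly blue, with *Psma6* and *Psme3* darkest, and *Psmd8* and *Psme2* stand out in red.

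In the alpha ring, whose subunits form the gate of the core, 3 of 7 tested genes fell and the other 4 did not pass, with all 7 estimates below 0 and their median at -0.09 on the log2 scale. The counts in this and the following role groups stand beside 26.1% of all genes and 40.7% of abundant genes called lower, and 24.7% and 19.9% called higher. Separation with N275D lower was seen for 29.6% of all genes and 43.8% of abundant genes. *Psma6* (GRCm38.p6 chromosome 12, 55384222 to 55418459) had 6954, 7047 and 7001 normalized reads in WT and 5365, 5422 and 5285 in N275D libraries. The genotypes were separated by far more than the spread within either. *Psma6* fell by 23.5%, from 7001 ± 46.4 to 5358 ± 68.7 (SD, n = 3), and its log2 fold change was -0.39 ± 0.03 (standard error) with an adjusted p of 1.2e-07 from limma. RefSeq gives this gene 2 start sites, and the sequence around each, from 250 bases before to 50 after the start, is shown because *Psma6* changed most. Capitals mark the motifs searched, an NF-Y box CCAAT, or ATTGG on the other strand, and the motif AGGTCA bound by ROR receptors.
Psma6, chr12:55383972-55384271, plus strand: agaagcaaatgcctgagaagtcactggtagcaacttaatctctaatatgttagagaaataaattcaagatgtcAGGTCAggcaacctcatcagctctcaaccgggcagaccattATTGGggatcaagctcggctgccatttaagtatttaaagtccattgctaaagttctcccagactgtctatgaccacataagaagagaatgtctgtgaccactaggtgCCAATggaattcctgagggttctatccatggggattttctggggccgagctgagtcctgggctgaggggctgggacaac
Psma6, chr12:55398575-55398874, plus strand: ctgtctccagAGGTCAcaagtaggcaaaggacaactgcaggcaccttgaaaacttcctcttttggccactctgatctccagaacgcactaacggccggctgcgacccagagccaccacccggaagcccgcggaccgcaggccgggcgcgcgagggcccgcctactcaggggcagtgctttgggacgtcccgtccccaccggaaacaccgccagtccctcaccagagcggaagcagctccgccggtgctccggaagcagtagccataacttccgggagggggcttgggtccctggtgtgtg
Both windows hold AGGTCA, and only the first holds the NF-Y box, at 2 positions.

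*Psma3* had 3483, 3429 and 3546 normalized reads in WT and 3040, 3060 and 3275 in N275D libraries, without overlap. It fell with a log2 fold change of -0.16 (adjusted p = 0.00381 from limma, standard error 0.04). The 2 genes with the estimates nearest to 0 in this ring were *Psma2* and *Psma5*. *Psma2* had 3279, 3091 and 3166 in WT and 3008, 3004 and 3031 in N275D, and *Psma5* had 3781, 3596 and 3886 and then 3532, 3538 and 3582. In both genes the N275D libraries all lay below WT, yet the log2 fold changes of -0.08 and -0.08 did not pass (adjusted p = 0.109 and 0.1 from limma). *Psma5* was called without WT replicate 2 (adjusted p = 0.0401 from limma). *Psma1* was called lower at -0.10 (adjusted p = 0.0405 from limma), and leaving out any library but WT replicate 3 moved its adjusted p to between 0.0739 and 0.148. It also lost the call with the replicate block (0.0961), eBayes without a trend (0.0814), total scaling (0.181) and quantile normalization (0.407) in limma, and by edgeR (0.0628) and DESeq2 (0.0898). *Psma4* and *Psma7* both had estimates of -0.09 and did not pass, and *Psma4* was called without N275D replicate 1 (adjusted p = 0.0452 from limma). *Psma8*, the alpha subunit of the testis proteasome, was listed at 9.08, 3.03 and 6.88 normalized reads in WT and 4.99, 4.01 and 6.91 in N275D libraries, with means of 6.33 ± 3.07 and 5.31 ± 1.48, and was too low to be tested.

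The 3 catalytic beta subunits carry the active sites of the constitutive core, *Psmb5* the chymotrypsin-like, *Psmb6* the caspase-like and *Psmb7* the trypsin-like activity. All 3 genes had N275D libraries entirely below WT, and 2 of the 3 passed the test. *Psmb5* (chromosome 14, 54614120 to 54617995) had 3502, 3527 and 3778 normalized reads in WT and 3334, 3247 and 3218 in N275D, a fall from 3602 ± 153 to 3267 ± 60.3 (log2 fold change -0.14, standard error 0.04, adjusted p = 0.00845 from limma). *Psmb7* had 4252, 4150 and 3941 in WT and 3574, 3794 and 3587 in N275D, a fall from 4114 ± 159 to 3652 ± 124 (log2 fold change -0.17, standard error 0.04, adjusted p = 0.00238 from limma). *Psmb6* had 2959, 2922 and 3223 in WT and 2767, 2907 and 2778 in N275D, where the highest mutant library lay just below the lowest WT library. Its log2 fold change of -0.11 (standard error 0.04) did not pass (adjusted p = 0.0556 from limma), and it passed without WT replicate 2 (0.0337). The call of *Psmb5* was lost under quantile normalization and with eBayes without a trend (adjusted p = 0.0968 and 0.0505 from limma). Processed pseudogenes are annotated for all 3 of these genes, and how shared reads were counted is not given in the sources used here.

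Among the 4 structural beta subunits, which complete the inner rings without a mature active site, 1 fell and 3 did not pass. *Psmb4* had 5966, 5906 and 6181 normalized reads in WT and 5328, 5295 and 5289 in N275D libraries. The mutant libraries lay close together and well below WT. *Psmb4* fell with a log2 fold change of -0.18 (adjusted p = 0.000405 from limma, standard error 0.03). *Psmb3* overlapped fully, with 3485, 3598 and 3529 against 3417, 3490 and 3634 and a log2 fold change of -0.01 (adjusted p = 0.847 from limma). *Psmb1* at -0.02 and *Psmb2* at -0.10 did not pass, and *Psmb2* passed without WT replicate 2 (adjusted p = 0.0465 from limma).

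Subunit genes are jointly induced when proteasome capacity falls short, mainly by the transcription factor NRF1, the product of *Nfe2l1*, which binds antioxidant response elements in their promoters. RefSeq start sites were found for 32 of the 39 genes, in 35 windows of 300 bases; *Psma8*, *Psmb1*, *Psmb2*, *Psmb7*, *Psmc3*, *Psmd3* and *Psmd7* had none. The core of that element, TGACNNNGC on either strand, was present in 6 of the 35 windows (17.1%), against 12.4% of all 32851 windows. Each match is shown with up to 10 bases on either side, on the strand of the gene, with the core in capitals.
Psmb5, chr14:54618024-54618052, minus strand: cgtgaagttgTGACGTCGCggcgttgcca
Psmb6, chr11:70525338-70525366, plus strand: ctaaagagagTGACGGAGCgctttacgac
Psmd9, chr5:123228149-123228177, plus strand: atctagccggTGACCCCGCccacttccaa
Psmc6, chr14:45329587-45329615, plus strand: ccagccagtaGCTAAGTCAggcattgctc
Psmd12, chr11:107479278-107479299, plus strand: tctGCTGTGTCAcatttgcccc
Psme4, chr11:30771758-30771786, plus strand: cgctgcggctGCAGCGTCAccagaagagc
Of these 6 genes, *Psmb5* and *Psmd9* fell and the other 4 did not pass. Relative to the start site, the match began 47 bases before it in *Psmb5*, 9 in *Psmb6*, 31 in *Psmd9* and 7 in *Psme4*, and lay near the far end of the window in *Psmc6* and *Psmd12*. The NF-Y box CCAAT was found in 12 of the 35 windows (34.3%, against 37.4% of all), the E-box CACGTG in 3 (8.57%, against 7.15%), and the hypoxia response core ACGTG, which the E-box contains, in 7 (20%, against 19.6%). AGGTCA was found in 9 windows of 8 genes (25.7%, against 16.3%), and the palindrome TCTCGCGA in 1, that of *Psmd5* (2.86%, against 0.995%). A match is a run of letters, and binding was not measured here.

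The 6 ATPases of the 19S base unfold substrates and thread them into the core. Of these, 2 fell and 4 did not pass, and the median was -0.07 on the log2 scale. *Psmc1* had 4448, 4323 and 4438 normalized reads in WT and 3883, 3980 and 4080 in N275D libraries, and *Psmc4* had 3829, 3683 and 3750 and then 3509, 3485 and 3416. Neither gene overlapped between genotypes. *Psmc1* fell with a log2 fold change of -0.15 (adjusted p = 0.00354 from limma, standard error 0.04) and *Psmc4* with -0.11 (standard error 0.04, adjusted p = 0.0167 from limma). The call of *Psmc4* was lost without WT replicate 1, N275D replicate 2 or N275D replicate 3 (adjusted p = 0.0676, 0.053 and 0.0721 from limma), and with eBayes without a trend (0.0532), total scaling (0.0832) or quantile normalization (0.251). *Psmc1* lost its call under quantile normalization (adjusted p = 0.138 from limma). *Psmc3* had 4718, 4555 and 4709 in WT and 4542, 4576 and 4534 in N275D (-0.03, adjusted p = 0.439 from limma). *Psmc6* was the only ATPase gene with an estimate above 0, at 0.03 (standard error 0.07, adjusted p = 0.707 from limma). Its WT libraries had 2615, 2641 and 2086 normalized reads against 2382, 2478 and 2622 in N275D, so WT replicate 3 stood below all the others. *Psmc2* and *Psmc5* had estimates of -0.07 and -0.08 and did not pass, and *Psmc5* passed without WT replicate 3 (adjusted p = 0.0414 from limma).

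The base also holds the scaffold subunits *Psmd1* and *Psmd2* and the ubiquitin receptor *Psmd4*. Both scaffold genes fell, whereas *Psmd4* did not pass. *Psmd1* had 5728, 5872 and 5394 normalized reads in WT and 5165, 5051 and 5120 in N275D libraries (log2 fold change -0.15, standard error 0.04, adjusted p = 0.00448 from limma). *Psmd2*, the subunit gene with the most reads, had 10880, 10708 and 10847 in WT and 10304, 10074 and 10103 in N275D (-0.09, standard error 0.03, adjusted p = 0.0274 from limma). That call was lost without WT replicate 1, N275D replicate 2 or N275D replicate 3 (adjusted p = 0.0742, 0.108 and 0.0869 from limma), and with the replicate block (0.0707), eBayes without a trend (0.0876), total scaling (0.159) or quantile normalization, which also ended the call of *Psmd1* (0.899 for *Psmd2* and 0.269 for *Psmd1*). *Psmd4* had 4012, 4172 and 4098 in WT and 4105, 4106 and 4145 in N275D, with a log2 fold change of 0.01 (adjusted p = 0.855 from limma).

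The lid, which cuts ubiquitin chains from substrates, held changes in both directions. Of its 8 genes, 4 fell, 1 rose and 3 did not pass, and their median was -0.12 on the log2 scale. *Psmd7*, the catalytically inactive partner of the deubiquitinase, had 4316, 3998 and 4374 normalized reads in WT and 3450, 3656 and 3535 in N275D libraries. It fell by 16.1%, from 4229 ± 203 to 3547 ± 103 (log2 fold change -0.25, standard error 0.04, adjusted p = 0.000118 from limma). *Psmd14*, the deubiquitinase itself, overlapped between genotypes, with 3347, 3232 and 2961 in WT and 3144, 3083 and 3200 in N275D (-0.02, standard error 0.05, adjusted p = 0.798 from limma). The scaffold gene *Psmd11* had 2920, 2986 and 3006 in WT and 2493, 2610 and 2583 in N275D, and fell (-0.21, standard error 0.04, adjusted p = 0.000259 from limma). *Psmd3* and *Psmd13*, which are structural lid subunits, fell by 0.19 and 0.17 on the log2 scale (adjusted p = 0.00177 and 0.00287 from limma), and *Psmd3* did not pass under quantile normalization (0.0984). *Psmd6* and *Psmd12* had estimates of -0.07 and did not pass, and *Psmd12* passed without WT replicate 3 (adjusted p = 0.00507 from limma).

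*Psmd8*, a lid subunit that joins the lid last during assembly, moved the other way. It had 5160, 4900 and 5174 normalized reads in WT and 5663, 5532 and 5471 in N275D libraries, with every mutant library above every WT library. *Psmd8* rose by 9.4%, from 5078 ± 154 to 5555 ± 98.3 (log2 fold change 0.13, standard error 0.04, adjusted p = 0.00739 from limma). Its promoter window is shown because it was the only core or 19S gene called higher; none of the 6 motifs is in it.
Psmd8, chr7:29180624-29180923, minus strand: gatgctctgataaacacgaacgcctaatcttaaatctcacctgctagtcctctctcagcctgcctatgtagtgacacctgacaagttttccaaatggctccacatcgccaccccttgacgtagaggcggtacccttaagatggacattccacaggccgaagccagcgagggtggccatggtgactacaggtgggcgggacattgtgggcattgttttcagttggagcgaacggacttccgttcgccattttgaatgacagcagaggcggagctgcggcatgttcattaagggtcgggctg

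**Figure D4:**
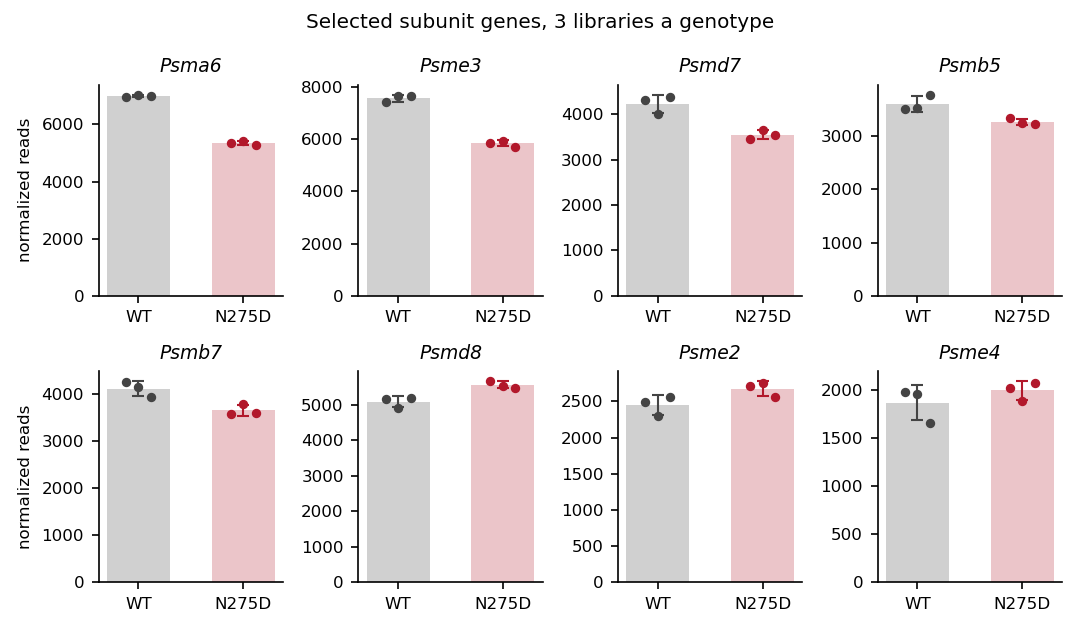
Normalized reads (vertical axes, starting at 0) of 8 subunit genes, with 1 point per library, bars at the mean of 3 libraries and whiskers of 1 SD, grey for WT and red for N275D. *Psma6*, *Psme3*, *Psmd7*, *Psmb5* and *Psmb7* are lower in every N275D library, *Psmd8* and *Psme2* are higher in every N275D library, and *Psme4* overlaps.

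The 3 chaperones *Psmd5*, *Psmd9* and *Psmd10* help to assemble the base and leave before the particle is complete. *Psmd9* had 869, 849 and 833 normalized reads in WT and 751, 780 and 727 in N275D libraries, and fell (log2 fold change -0.18, standard error 0.05, adjusted p = 0.00945 from limma). Without N275D replicate 3 it did not pass (adjusted p = 0.0521 from limma). *Psmd5* had 1092, 1028 and 1034 in WT and 1070, 1075 and 1063 in N275D (0.02, adjusted p = 0.685 from limma), and *Psmd10* had an estimate of -0.02 (adjusted p = 0.782 from limma). Both overlapped between genotypes.

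The activators gave the widest range of estimates, with 1 of 4 genes lower, 1 higher and 2 not passing. *Psme3*, whose product PA28γ opens the core in the nucleus for degradation without ubiquitin, had 7402, 7631 and 7640 normalized reads in WT and 5857, 5930 and 5698 in N275D libraries. All mutant libraries lay well below all WT libraries. *Psme3* fell by 22.9%, from 7558 ± 135 to 5828 ± 118 (log2 fold change -0.37, standard error 0.04, adjusted p = 2.37e-07 from limma). Its promoter window holds the E-box CACGTG, the hypoxia response core within it, and the NF-Y box, read here as ATTGG.
Psme3, chr11:101315963-101316262, plus strand: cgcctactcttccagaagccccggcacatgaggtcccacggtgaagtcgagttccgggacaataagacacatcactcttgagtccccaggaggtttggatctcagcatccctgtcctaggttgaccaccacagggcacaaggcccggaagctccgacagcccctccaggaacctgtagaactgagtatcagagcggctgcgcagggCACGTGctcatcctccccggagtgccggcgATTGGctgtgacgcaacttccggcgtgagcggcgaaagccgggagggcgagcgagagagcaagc

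*Psme1* and *Psme2* encode PA28α and PA28β, which form 1 ring together and are induced by interferon. *Psme1* had 1952, 1861 and 1897 normalized reads in WT and 1805, 1869 and 1779 in N275D libraries, and did not pass (log2 fold change -0.07, standard error 0.04, adjusted p = 0.203 from limma). *Psme2* had 2491, 2296 and 2555 in WT and 2709, 2760 and 2557 in N275D, where the lowest mutant library was barely above the highest WT library. *Psme2* rose from 2447 ± 135 to 2675 ± 106 (log2 fold change 0.13, standard error 0.05, adjusted p = 0.0306 from limma), and lost the call without WT replicate 2, N275D replicate 1 or N275D replicate 2 (adjusted p = 0.162, 0.101 and 0.14 from limma), with the replicate block (0.0507), with eBayes without a trend (0.117) or with all genes of a mean above 0 tested (0.0507). Its near-identical copy *Psme2b* was listed at 33.3, 35.3 and 31.4 in WT and 46.9, 47.2 and 62.2 in N275D, so the value of *Psme2* is uncertain by any reads shared between the copies. *Psme4*, which encodes the nuclear activator PA200, had 1987, 1961 and 1659 in WT and 2025, 1890 and 2081 in N275D (0.10, standard error 0.06, adjusted p = 0.185 from limma). Its libraries overlapped between genotypes, since N275D replicate 2 lay below WT replicates 1 and 2.

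Transcript levels of the subunits, per kilobase of the longest annotated transcript, were unequal within every role. In the alpha ring, WT levels ran from 1092 normalized reads per kilobase for *Psma2* to 6718 for *Psma6*, a ratio of 6.15, in the order *Psma2*, *Psma3*, *Psma4*, *Psma7*, *Psma1*, *Psma5* and *Psma6*. *Psma6* thus had the highest level per kilobase in its ring in both genotypes, at 6718 in WT and 5142 in N275D. Catalytic subunits ran from 1444 for *Psmb7* through 3142 for *Psmb6* to 4007 for *Psmb5*, and structural beta subunits from 1202 for *Psmb1* to 5087 for *Psmb4*. ATPases of the base ran from 864 for *Psmc2* to 2768 for *Psmc1*, and lid subunits from 998 for *Psmd11* to 2675 for *Psmd7*. The activators had the widest range, from 288 for *Psme4* to 2837 for *Psme3*, a ratio of 9.85. The base assembly chaperones ran from 239 for *Psmd5* to 467 for *Psmd10*. These levels depend on the transcript length used. In every role the gene with the lowest level was also the one with the longest transcript. *Psma2* and *Psma6* averaged 3179 and 7001 normalized reads in WT, over transcripts of 2911 and 1042 bases. With the union of annotated exons, which includes those long transcripts, *Psma6* had 5673 and *Psma2* 865 normalized reads per kilobase in WT. Which transcripts the cells made was not measured, so the order within a role may reflect annotated lengths.

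The immunoproteasome subunits *Psmb8*, *Psmb9* and *Psmb10* replace *Psmb5*, *Psmb6* and *Psmb7* in newly built cores. *Psmb10* had 675, 602 and 709 normalized reads in WT and 488, 516 and 471 in N275D libraries, and fell (log2 fold change -0.43, standard error 0.07, adjusted p = 6.52e-05 from limma). *Psmb8* had 3510, 3380 and 3826 in WT and 3815, 3664 and 3773 in N275D (0.07, adjusted p = 0.195 from limma). It passed as higher without WT replicate 3 (0.00354 from limma) and under quantile normalization (0.0297). *Psmb9* had 530, 512 and 557 and then 533, 513 and 542 (-0.01, adjusted p = 0.904 from limma). The 3 pairs were compared as ratios of levels per kilobase, as a description. The *Psmb8* to *Psmb5* ratio was 0.473, 0.452 and 0.477 in WT and 0.539, 0.532 and 0.553 in N275D libraries, higher in each mutant library. The *Psmb10* to *Psmb7* ratio was 0.345, 0.315 and 0.391 in WT and 0.297, 0.295 and 0.285 in N275D, lower in each mutant library. For *Psmb9* to *Psmb6* the genotypes overlapped, at 0.0600, 0.0587 and 0.0579 against 0.0645, 0.0591 and 0.0654. Of the 3 immunoproteasome genes, only *Psmb10* was called without a change of setting, and differences between these genes or ratios were not tested.

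Of 7 genes listed as core assembly factors, 6 were in the table, of which 3 fell and 3 did not pass (median log2 fold change -0.18). *Pomp*, the maturation factor that leads beta subunits into the core, had 3031, 3071 and 2990 normalized reads in WT and 2529, 2695 and 2487 in N275D libraries (-0.24, standard error 0.04, adjusted p = 0.000166 from limma). The alpha ring chaperones *Psmg1* and *Psmg3* fell by 0.25 and 0.38 on the log2 scale (adjusted p = 0.00221 and 5.97e-05 from limma), whereas *Psmg2* and *Psmg4* and the nuclear import factor *Akirin2* did not pass. Of 15 genes for proteins that bind the proteasome, 7 fell and 8 did not pass (median -0.09). These counts of both lists stand beside 26.1% of all genes and 40.7% of abundant genes called lower. Those that fell were the ubiquitin receptor *Adrm1*, the deubiquitinases *Usp14* and *Uchl5*, the ligase *Ube3c*, and the shuttle factors *Rad23b*, *Ubqln1* and *Ubqln4*, with log2 fold changes from -0.23 for *Ubqln4* to -0.15 for *Ubqln1*. *Uchl5* was the least certain of the 7: leaving out any library but WT replicate 3 gave an adjusted p of 0.05 to 0.1 by limma. Quantile normalization and eBayes without a trend each ended the calls of *Adrm1* (adjusted p = 0.0514 and 0.0547 from limma), *Usp14* (0.0608 and 0.0621) and *Uchl5* (0.0626 and 0.101), and total scaling that of *Uchl5* (0.0661). The call of *Usp14* was lost without WT replicate 2 (adjusted p = 0.0509 from limma), and *Zfand5*, which stimulates the 26S proteasome and did not pass, was called higher without it (0.0133). *Zfand5* was also called higher under total scaling (0.0228 from limma) and by edgeR (0.0487).

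Regulators of subunit transcription moved in both directions, with 4 of 10 genes higher, 4 lower and 2 not passing. Over all genes tested, 24.7% were called higher and 26.1% lower, and among abundant genes 19.9% and 40.7%. *Nfe2l1* had 4905, 4889 and 5388 normalized reads in WT and 6142, 6099 and 5737 in N275D libraries, and rose (log2 fold change 0.24, standard error 0.04, adjusted p = 0.000212 from limma). *Ngly1*, the enzyme that removes sugar chains from NRF1 during its activation, had 423, 384 and 357 in WT and 559, 506 and 536 in N275D (0.46, standard error 0.07, adjusted p = 5.57e-05 from limma). *Ddi2*, the protease that cleaves NRF1, had 1398, 1394 and 1373 in WT and 1272, 1206 and 1222 in N275D, and fell (-0.17, standard error 0.04, adjusted p = 0.00441 from limma). The genes for activation steps of NRF1 therefore did not share a direction. *Nfe2l2*, which encodes the related factor NRF2, rose by 0.21 on the log2 scale (adjusted p = 0.00208 from limma). The small MAF partner genes were split, with *Mafg* higher at 0.16, *Maff* lower at -0.45 and *Mafk* not passing (adjusted p = 0.0135, 0.000312 and 0.967 from limma). With eBayes without a trend (0.0759 from limma), *Mafg* lost its call, as it did without WT replicate 2 or N275D replicate 1 or 2 (adjusted p = 0.0754, 0.0607 and 0.0518 from limma). The NF-Y subunit genes *Nfya* and *Nfyc* fell by 0.23 and 0.21 (adjusted p = 0.00113 and 0.00232 from limma), and *Nfyb* did not pass.

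Genes for ubiquitin, its activation and the p97 unfoldase did not share a direction. *Ubb*, a polyubiquitin gene, had 38256, 37976 and 37984 normalized reads in WT and 42327, 41242 and 42401 in N275D libraries, without overlap. *Ubb* rose by 0.14 on the log2 scale (adjusted p = 0.000994 from limma), and did not pass under quantile normalization (0.0905). *Rps27a*, which encodes ubiquitin fused to a ribosomal protein, did not pass (0.07, adjusted p = 0.109 from limma). It passed as higher without WT replicate 1 (0.03 from limma), under quantile normalization (0.00446) and under total scaling (0.0242). *Uba1*, the main ubiquitin-activating enzyme, fell by 0.14 on the log2 scale (adjusted p = 0.00161 from limma). *Vcp*, the p97 unfoldase that hands substrates to the proteasome, had a log2 fold change of -0.004 (adjusted p = 0.921 from limma). *Uba6*, *Ufd1* and *Nploc4* did not pass. *Uba6* was called lower without WT replicate 3 (adjusted p = 0.0009 from limma) and *Ufd1* higher without WT replicate 2 (0.0329). *Ufd1* was also called higher under quantile normalization (0.0401 from limma) and total scaling (0.0283).

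**Figure D5:**
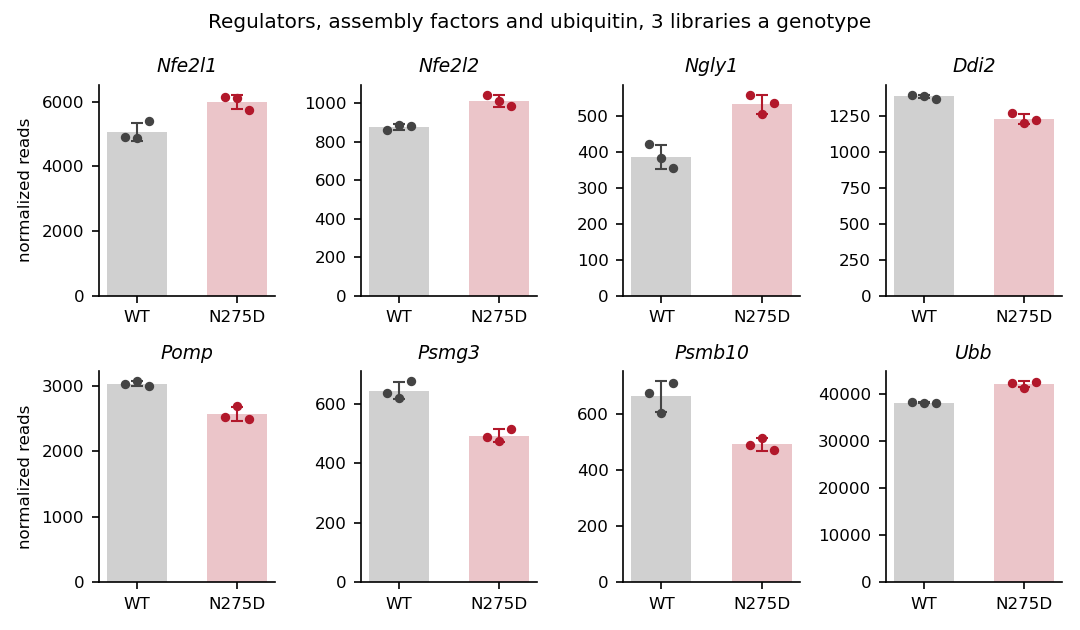
Normalized reads (vertical axes, starting at 0) of 8 genes for regulators, assembly factors, an immunoproteasome subunit and ubiquitin, with 1 point per library, bars at the mean of 3 libraries and whiskers of 1 SD, grey for WT and red for N275D. *Nfe2l1*, *Nfe2l2*, *Ngly1* and *Ubb* are higher and *Ddi2*, *Pomp*, *Psmg3* and *Psmb10* lower in every N275D library.

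Of the 16 subunits called lower, 8 kept the call in all 17 alternative settings, as did 1 of the 2 called higher. Over 38 genes and 17 settings, 604 of 646 results stayed on their side of the threshold and in their direction. These 604 include genes that did not pass and stayed so. Of the other results, 36 lost the call, 6 gained it and 0 of the called genes changed sign. *Psma3*, *Psma6*, *Psmb4*, *Psmb7*, *Psmd7*, *Psmd11*, *Psmd13* and *Psme3* were called lower, and *Psmd8* higher, in every one of these settings. Exons of 10 subunit genes overlap another annotated gene, of which *Psmb5* and *Psmd1* do so on the same strand, so a part of the reads of these genes cannot be assigned with certainty. The methods describe strand-specific libraries, and the setting used for strand in counting is not given in the sources used here.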

How the data were processed

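RNA-seq of 3 WT and 3 N275D Th17 libraries was analysed, with groups taken from the labels. According to the methods, the authors used STAR for alignment of trimmed reads to mm10, featureCounts for counting and DESeq2 for the comparison. The deposited signal values are normalized reads per gene, whole multiples (within 1e-06) of 1 factor per library. The log2 fold changes and q-values that the authors deposited beside them, and their rounded group averages (a score here), were not used.

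Genes with a mean of at least 10 were tested with limma 3.58.1 (R 4.3.3, trended prior) on log2(normalized reads + 1), a scale that understates changes of low genes, with Benjamini-Hochberg adjustment over 11908 genes and a threshold of 0.05. The members, role groups and gene lists were chosen with earlier results of these data known. Named genes were the catalytic subunits, the activators, and the members with the largest and lowest fold changes of each role (2 of each, or 1 in groups of under 5); the others were added where a call changed or a list needed them. Coordinates and promoter windows are from RefSeq (GRCm38.p6), and transcript lengths from GENCODE. Replicates differed by more than counting noise and each counted as 1 sample. The test was checked on simulated data in which the changed genes differed by 2-fold. No subunit changed by that much, so the check does not cover calls of the size reported here. Alternatives included edgeR 4.0.16 and DESeq2 1.42.0 on the recovered reads. Some genes of the lists are not reported here.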

Additional observations from a re-analysis of the deposited data

How the results depend on the processing

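The median log2 fold change of the subunits was below 0 under every alternative tried, and moved by more than its spread between replicates (0.01) only under total scaling, chosen after seeing the data (-0.0544, with the median of all genes at 0.0317), and quantile normalization (-0.024), under which 9 subunits were called lower. One subunit rather than 2 was called higher (count of 1) with genes of a mean above 0, with eBayes without a trend and with the replicate number as a block; leaving out 1 library gave 12 to 18 lower, 1 to 2 higher, medians of -0.10 to -0.08 and 5162 to 6396 genes called in all. Same-numbered libraries did not deviate together (correlations of -0.0828 to 0.0407), and the fit with the replicate block called 14 subunits lower and 1 higher, with a median of -0.09, and 5727 of all genes. edgeR and DESeq2 on the recovered reads each called 15 lower and 2 higher. A minimum of 1.2-fold left 3566 genes, with 2 subunits lower and 0 higher by limma, and a minimum of 2-fold left 427 genes and 0 subunits in either direction. Without a minimum fold change, 21 of the 38 subunits tested had an unadjusted p under 0.05 by limma. The median of the base assembly chaperones turned to 0.0113 under total scaling and ranged from -0.073 to 0.0134 when 1 library was left out, that of the activators from -0.0262 to 0.0473, the turn in each case coming without WT replicate 3, so no direction is given for these groups. Without the 10 most abundant genes, the subunits held 0.810% of normalized reads in WT and 0.770% in N275D libraries. The depth of 17659035 to 18510878 reads per library gave a median standard error of 0.04 for the subunits, and *Psma8* was too low to be tested. The causes of these changes were not tested.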
